A study of Mus musculus with 48 samples.

Results

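The 10 genes described here encode heat shock chaperones and their regulator in mouse embryonic stem cells: Hspa1a, Hspa1b, Hspa8, Hsph1, Dnajb1, Hsp90aa1, Hsp90ab1, Hspd1, Hspe1 and Hsf1. They were taken by name from a table of read counts for 55376 genes, and all 10 had a row. The label "cytosolic chaperone" covers 7 of them, since the proteins of Hspd1 and Hspe1 work in mitochondria and Hsf1 encodes a transcription factor. All 10 passed edgeR's default filter on low counts. Of these, 6 also stood at least 10-fold above the background of the libraries, and the other 4 (Hspa1a, Hspa1b, Hsph1 and Hsf1) stood between 3.67-fold and 8.09-fold above it.

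The nascent RNA libraries, 8 in number and 2 to each of 4 groups, came from TCF2.2, a 2i-derived embryonic stem cell line of strain C57BL/6 grown on gelatin without serum. Cells received 10 µM BRM014, an ATPase inhibitor of the chromatin remodellers BRG1 and BRM, for 3 hours, and their controls received DMSO for 3 hours. Other cells were transduced with lentivirus carrying an shRNA against Chd4, the ATPase of the remodelling complex NuRD, or a scrambled shRNA, and then spent 24 hours in 1.5 µg/mL puromycin. New RNA was labelled for 5 min with 500 µM 4-thiouridine, mixed with synthetic ERCC RNAs in proportion to the number of cells, biotinylated and captured, then broken to an average of 300 nt for a directional library. All groups are of 1 cell line, and the series calls the libraries of each group biological duplicates. In the count table they are numbered 1 and 2 for BRM014 and DMSO, 1 and 4 for Chd4 shRNA, and 1 and 3 for scrambled shRNA, and values are given in that order.

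Heat shock proteins bind unfolded or newly made polypeptides and help them fold. HSP70 proteins work with J-domain partners and with HSP110 proteins that exchange their nucleotide, HSP90 proteins mature kinases, receptors and other clients, and HSP60 with HSP10 forms the folding chamber of mitochondria. When unfolded protein accumulates, HSF1 is released from chaperones, forms trimers and binds heat shock elements, which are inverted repeats of the unit nGAAn, so that the inducible genes among these are transcribed strongly. Embryonic stem cells are known to transcribe many chaperone genes without stress.

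Total counts ranged from 6982354 to 17128981 per library. Background, measured on 1434 olfactory and vomeronasal receptor genes, was 6.78 and 7.21 counts per kb of exon in the libraries labelled Chd4 shRNA, and between 1.32 and 2.66 in the other 6. In the libraries labelled Chd4 shRNA, Chd4 itself had 730 and 760 counts, against 806 and 618 in the scrambled libraries. Relative to other expressed genes it was higher with Chd4 shRNA (log2 fold change 0.59 ± 0.16 SE, adjusted p = 0.00273, edgeR's quasi-likelihood test). These are counts of newly made RNA, and the amounts of mature Chd4 RNA and of its protein were not examined here. Whether Chd4 was knocked down was therefore not tested, and the libraries labelled Chd4 shRNA are named by that label throughout. The summed level of 8 embryonic stem cell markers was 486 and 521 CPM (counts-per-million, relative to an effective library size set on the expressed genes) in those libraries, against 1000 and 1060 CPM in the scrambled libraries. Of the 8, 7 were called lower there, Tdgf1 (-1.85 ± 0.14 SE) and Nanog (-1.55 ± 0.15 SE) among them, and 0 were at a count of 0. Sums over 8 fibroblast markers were 511 and 574 counts, where background alone gives 368 and 391, in the libraries labelled Chd4 shRNA, against 98 and 128, where background gives 71.8 and 99.6, in the scrambled libraries. Sums over 8 germ layer markers were 266 and 274 counts, at a background of 257 and 273, with Chd4 shRNA, against 88 and 102, at a background of 50.1 and 69.5, with scrambled shRNA. In bulk RNA, fewer cells of a type and less RNA per cell cannot be told apart.

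The promoters of the genes that moved most, Hspa1a, Hspa1b and Hsph1, are shown with that of Hspe1, which shares its promoter region with Hspd1. Each line holds the 250 bases before the RefSeq start site (GRCm38.p6, the assembly of mm10), 5′ to 3′ on the gene's strand, and capitals mark matches to GAANNTTC or TTCNNGAA, pairs of inverted heat shock units. The stretches are chr17:34972157-34972406, minus strand, for Hspa1a, chr17:34959239-34959488, minus strand, for Hspa1b, chr5:149636337-149636586, minus strand, for Hsph1, and chr1:55087898-55088147, plus strand, for Hspe1.
Hspa1a: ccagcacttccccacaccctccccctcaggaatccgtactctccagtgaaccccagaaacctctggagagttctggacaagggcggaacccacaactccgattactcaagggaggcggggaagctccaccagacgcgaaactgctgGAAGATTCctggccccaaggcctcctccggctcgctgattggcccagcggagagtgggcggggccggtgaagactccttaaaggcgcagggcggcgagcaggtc
Hspa1b: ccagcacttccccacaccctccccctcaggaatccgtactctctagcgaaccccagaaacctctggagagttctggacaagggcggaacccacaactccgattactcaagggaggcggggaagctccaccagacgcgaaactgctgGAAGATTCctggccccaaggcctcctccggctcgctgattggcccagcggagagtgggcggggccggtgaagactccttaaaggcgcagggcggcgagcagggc
Hsph1: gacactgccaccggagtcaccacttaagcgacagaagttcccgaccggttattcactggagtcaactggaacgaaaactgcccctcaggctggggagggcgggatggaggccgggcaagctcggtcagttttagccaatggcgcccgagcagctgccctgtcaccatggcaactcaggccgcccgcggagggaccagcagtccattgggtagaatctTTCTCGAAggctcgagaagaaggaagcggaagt
Hspe1: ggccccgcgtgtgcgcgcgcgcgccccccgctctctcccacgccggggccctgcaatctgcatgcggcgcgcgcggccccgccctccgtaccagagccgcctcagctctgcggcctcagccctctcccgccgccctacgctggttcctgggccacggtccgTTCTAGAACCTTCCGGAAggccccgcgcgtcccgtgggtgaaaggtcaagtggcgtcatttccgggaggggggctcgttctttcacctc

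The Hspa1a and Hspa1b stretches differ at 3 of 250 bases, and both carry GAAGATTC from 104 to 97 bases before the start site. Letters were searched on both strands in the RefSeq windows, which reach from 250 bases before to 50 bases after each start site and were found for 6 of the 10 genes (Hspa1a, Hspa1b, Hsph1, Dnajb1, Hspe1 and Hspd1). The 3-unit element GAANNTTCNNGAA, which contains GAANNTTC, was present in 198 of 32851 such windows over the genome, or 0.603%. Among the 6 genes it was in the windows of Hsph1, as TTCTGGAAAGTTC from 37 to 49 bases after the start, and of Hspe1, where 2 overlapping copies on opposite strands form the capitals above. GAANNTTC alone was in 7.86% of all windows and in those of Hspa1a, Hspa1b, Hsph1 and Hspe1, and TTCNNGAA was in 8.52% of all windows and in those of Hsph1 and Hspe1. The Dnajb1 window and the Hspd1 window at the start site of the count table held none of the 3. A second RefSeq start site of Hspd1 lies 216 bases from that of Hspe1, on the other strand, and the Hspe1 element lies 127 to 144 bases upstream of it. The letters TATAAA, in 13.6% of all windows, were in 0 of the 6. These matches describe the sequence only.

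Per kb of exon, the 10 genes spanned a wide range of nascent RNA. Hspe1 (HSP10, the lid of the mitochondrial chaperonin) had the highest mean in every group, at 234 CPM per kb with BRM014, 322 with Chd4 shRNA, 260 with scrambled shRNA and 236 with DMSO. Hsp90ab1 and Hsp90aa1, the constitutive and the inducible cytosolic HSP90, came next in every group, at 195 and 151 with BRM014 and 196 and 120 with DMSO. Hspa8, the constitutive HSP70, and Hspd1, the mitochondrial HSP60, followed and changed places: Hspd1 was above Hspa8 with BRM014 (52.4 against 43.1 per kb) and below it in the other 3 groups. Dnajb1, a J-domain partner of HSP70, stood far lower, at 8.72 to 10.9 per kb. Hsf1, Hsph1, Hspa1b and Hspa1a filled the last 4 places in every group, at 0.48 to 4.85 per kb. Libraries of neighbouring genes in the order overlapped for Hsf1 and Hsph1 with BRM014 and for Hspe1 and Hsp90ab1 with DMSO, and for the other 34 pairs of neighbours they did not. The 10 genes together took 0.19% and 0.192% of the effective library size with BRM014, 0.211% and 0.233% in the libraries labelled Chd4 shRNA, 0.215% and 0.213% with scrambled shRNA, and 0.167% and 0.191% with DMSO.

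**Figure D1:**
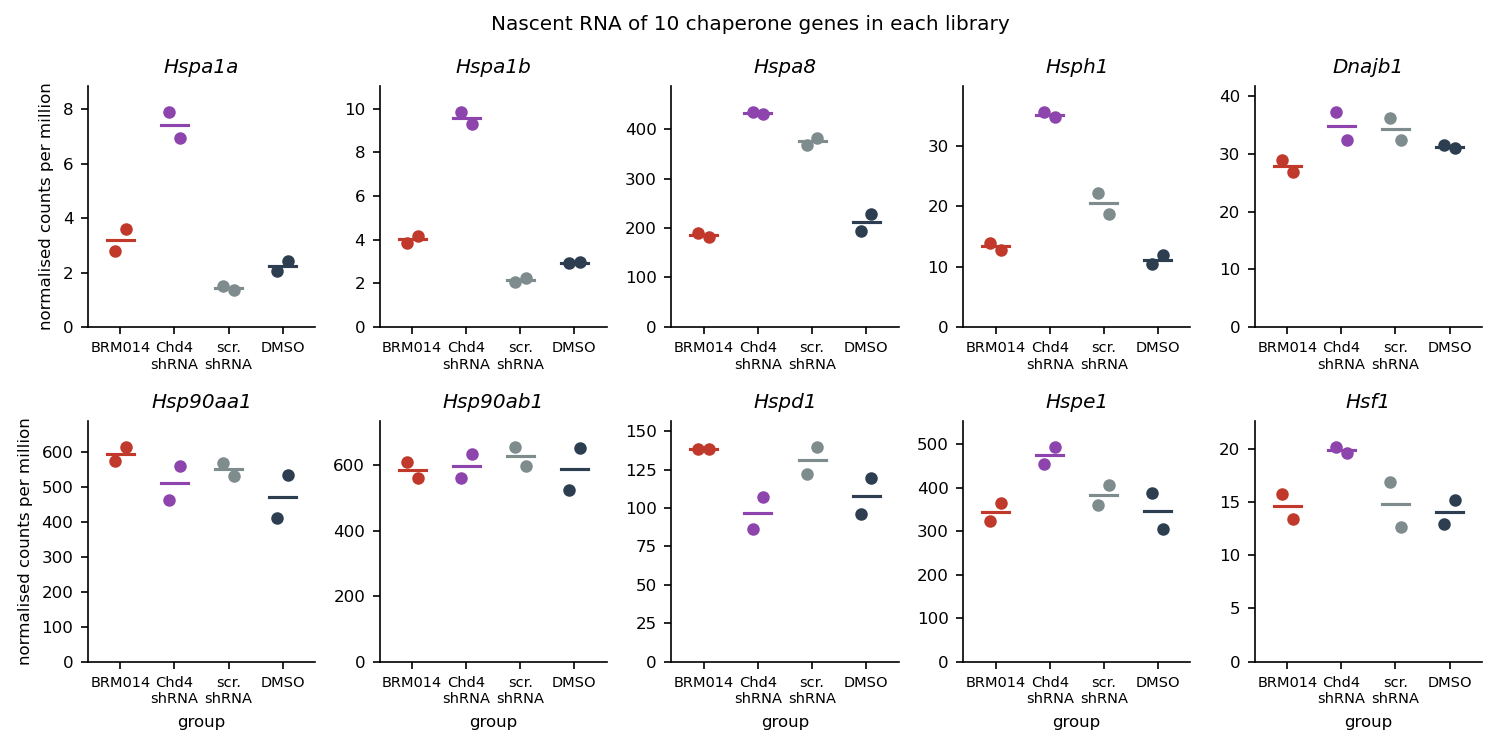
Normalised CPM of each gene (y axis, linear from 0, own scale per gene) in the 4 groups (x axis), with 1 point per library and a line at the mean of 2. Hspa1a, Hspa1b and Hsph1 stand highest in the libraries labelled Chd4 shRNA, at 6.96 and 7.92 for Hspa1a, and Hspa8 is higher in all 4 shRNA libraries than in the other 4.

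The comparison of Chd4 shRNA with scrambled shRNA is meant to ask how loss of NuRD remodelling affects transcription, though that loss was not tested here. Among the 10 genes the inducible HSP70 genes differed most in this comparison. Hspa1a had 49 and 42 counts, or 7.92 and 6.96 CPM, in the libraries labelled Chd4 shRNA, against 13 and 12 counts, or 1.49 and 1.35 CPM, in the scrambled libraries. Hspa1b had 61 and 56 counts (9.85 and 9.28 CPM) in the libraries labelled Chd4 shRNA, against 18 and 20 (2.07 and 2.26 CPM) in the scrambled libraries. For both genes the 2 libraries labelled Chd4 shRNA were above the scrambled libraries with a wide gap. Hspa1a rose 5.2-fold (log2 fold change 2.38 ± 0.28 SE, adjusted p = 1.41e-07) and Hspa1b 4.41-fold (2.14 ± 0.24 SE, adjusted p = 5.28e-08, edgeR's quasi-likelihood test, Benjamini-Hochberg adjustment over 15464 genes at least 3-fold above background).

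A large part of these low counts can be background. From its exon length, Hspa1a is expected to have 20.1 and 21.4 background counts in the libraries labelled Chd4 shRNA, or 41% and 50.9% of what was counted, against 3.93 and 5.44 (30.2% and 45.4%) in the scrambled libraries. For Hspa1b the expected background was 19 and 20.2 counts with Chd4 shRNA, against 3.71 and 5.14 counts with scrambled shRNA. With background subtracted by exon length, the fitted change was 5.19-fold for Hspa1a (adjusted p = 0.000158) and 4.48-fold for Hspa1b (adjusted p = 2.56e-05). That fit also took new library sizes from the subtracted counts, so its folds are not the effect of subtraction alone. Hspa1l, the third HSP70 gene of the cluster on chromosome 17 and mainly known from testis, stood at background. Its counts were 19 and 14, where background gives 16.8 and 17.8, in the libraries labelled Chd4 shRNA, against 4 and 6, where background gives 3.26 and 4.52, in the scrambled libraries.

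**Figure D2:**
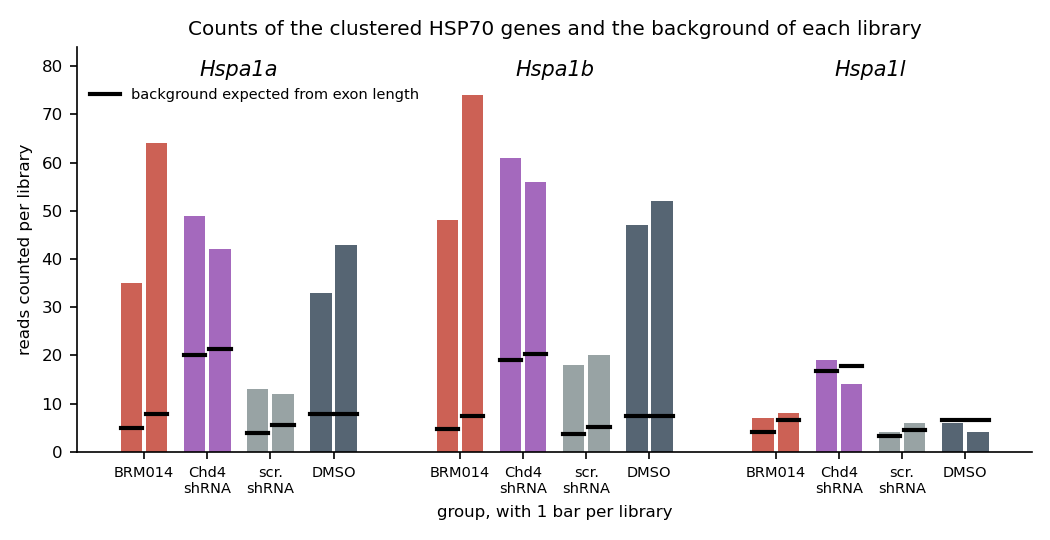
Reads counted per library (y axis, linear from 0) for Hspa1a, Hspa1b and Hspa1l in the 4 groups (x axis, 1 bar per library), with a black line at the count expected from the background of that library and the gene's exon length. Hspa1a and Hspa1b exceed the line in all 8 libraries, and Hspa1l lies close to it, for example at 19 and 14 counts against 16.8 and 17.8 in the libraries labelled Chd4 shRNA.

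Hspa1a (chromosome 17, 34969190 to 34972156, minus strand, mm10) and Hspa1b (34956436 to 34959238, minus strand) are near-identical copies 9951 bases apart, so reads may have been split between them. Their sum is less exposed to such splitting: with Chd4 shRNA it was 110 and 98 counts, or 17.8 and 16.2 CPM, against 31 and 32 counts, or 3.56 and 3.61 CPM, with scrambled shRNA. After subtraction of background, on unchanged library sizes, the sums were 11.5 and 9.35 CPM with Chd4 shRNA, against 2.68 and 2.42 CPM with scrambled shRNA. Gm20481, on the opposite strand, overlaps Hspa1a over 2225 bases, and its counts were 11 and 8 with Chd4 shRNA, against 1 and 2 with scrambled shRNA. Which strand was counted is not given in the sources used here, so reads of this pair cannot be told apart.

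Hsph1, the HSP110 nucleotide exchange factor (chromosome 5, 149614287 to 149636376, minus strand), had 35.7 and 34.8 CPM in the libraries labelled Chd4 shRNA, against 22.3 and 18.7 in the scrambled libraries. It rose 1.72-fold (log2 fold change 0.78 ± 0.15 SE, adjusted p = 9.7e-05), and 1.64-fold with background subtracted on the new library sizes (adjusted p = 0.00236). Hsf1, the master regulator of the response (chromosome 15, 76477422 to 76501913, plus strand), had 20.2 and 19.6 CPM in the libraries labelled Chd4 shRNA, against 16.9 and 12.6 in the scrambled libraries. Its log2 fold change was 0.43 ± 0.17 SE (adjusted p = 0.038), and the call was lost with background subtracted, when the value was 0.03 (adjusted p = 0.933): background made up 38.5% and 43.4% of its counts in the libraries labelled Chd4 shRNA, against 6.39% and 11.6% in the scrambled libraries. The call was also lost in DESeq2 (0.43, adjusted p = 0.0911), without library 1 (0.41, adjusted p = 0.151) or 4 (0.45, adjusted p = 0.0975) of Chd4 shRNA and without library 3 of scrambled shRNA (0.24, adjusted p = 0.355), and it held in 8 of 17 alternatives. The groups did not overlap for either gene, but those of Hsf1 lay close together.

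Hspd1 (chromosome 1, 55077835 to 55088243, minus strand) went the other way. It had 86.6 and 106.9 CPM in the libraries labelled Chd4 shRNA, against 122.3 and 139.9 in the scrambled libraries, and fell to 0.738 of their level (log2 fold change -0.44 ± 0.15 SE, adjusted p = 0.0209). This call was lost with background subtracted (-0.26, adjusted p = 0.173), without library 1 of Chd4 shRNA (-0.29, adjusted p = 0.249) and without library 3 of scrambled shRNA (-0.34, adjusted p = 0.166). On the ERCC scales Hspd1 was at -0.25 (adjusted p = 0.963) with TMM-scaled totals, 0.05 with the 6 most abundant ERCC RNAs and 0.18 with plain sums, so its direction depends on the scale. Hspe1, its divergent neighbour (55088132 to 55091307, plus strand), had 454.9 and 494.5 CPM in the libraries labelled Chd4 shRNA, against 359.7 and 407.2 in the scrambled libraries. Its log2 fold change of 0.31 ± 0.15 SE did not pass the test (adjusted p = 0.0997). With background subtracted and new library sizes it was 0.53 and passed (adjusted p = 0.00791). In the libraries labelled Chd4 shRNA, background made up 0.355% and 0.356% of Hspe1 counts and 3.34% and 2.95% of Hspd1 counts. Subtraction itself thus removed little from either gene. The rows of the pair overlap by 112 bases on opposite strands. The difference between the changes of the 2 genes was not tested.

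The major cytosolic chaperones were not called. Hspa8 (chromosome 9, 40800984 to 40810087, plus strand) had 435.5 and 430.4 CPM in the libraries labelled Chd4 shRNA, against 369 and 383.4 in the scrambled libraries. Its log2 fold change was 0.20 ± 0.13 SE (adjusted p = 0.236). With background subtracted and new library sizes it was 0.41 (adjusted p = 0.0201), though background made up only 1.08% and 1.19% of its counts with Chd4 shRNA. Hsp90aa1 (chromosome 12, 110690605 to 110702728, minus strand) had 462.3 and 558.2 CPM in the libraries labelled Chd4 shRNA, against 567.9 and 531.5 in the scrambled libraries, a log2 fold change of -0.11 ± 0.15 SE. The groups of Hspa8 did not overlap, and those of Hsp90aa1 did. Hsp90ab1 (chromosome 17, 45567775 to 45573271, minus strand) had 560.5 and 635.1 CPM with Chd4 shRNA, against 656.4 and 598.6 with scrambled shRNA, a log2 fold change of -0.07 ± 0.15 SE. Dnajb1 (chromosome 8, 83608193 to 83612653, plus strand) had 37.3 and 32.5 CPM with Chd4 shRNA, against 36.3 and 32.4 with scrambled shRNA, a log2 fold change of 0.02 ± 0.14 SE. The groups overlapped for both.

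In all, 4 of the 10 genes were called higher (Hspa1a, Hspa1b, Hsph1 and Hsf1) and 1 lower (Hspd1). Among all 8017 genes at least 10-fold above background, 40.6% were called in this comparison, 20.4% higher and 20.2% lower; among the 15464 genes at least 3-fold above it, 54.8% were called, 43.7% higher and 11.1% lower. The median log2 fold change of those 15464 genes was 0.40. With background subtracted, 39.9% of them were called, 26.4% higher and 13.5% lower. The share of calls among the 10 was near that of other genes. Against the median of 0.40, Hspa1a and Hspa1b lay 1.98 and 1.74 log2 units higher, Hsph1 0.38 higher, and Hsf1 0.03 higher. Scaled by TMM over all genes past the default filter, which lowers the median expressed gene by 1.34, Hspa1a and Hspa1b were still called higher and the other 8 were called lower, Hsph1 at -0.57 and Hsf1 at -0.92 among them. The part of the background in these results was examined only by the fits with background subtracted, and that of the lower stem cell marker levels was not tested.

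The comparison of BRM014 with DMSO asks the same for acute inhibition of BRG1 and BRM, and BRM014 changed none of the 10 genes past the threshold: 0 of 10 were called, where 7.15% of the genes at least 10-fold above background (2.46% higher, 4.69% lower) and 6.79% of those at least 3-fold above it (1.89% higher, 4.9% lower) were. At an unadjusted p under 0.05, 4 of the 10 passed in edgeR's quasi-likelihood test. The share of all genes at that limit was not computed, so this count cannot be set against the adjusted shares above. DESeq2 called 0 as well. Hspa1a had 2.79 and 3.61 CPM with BRM014, against 2.04 and 2.44 with DMSO, a log2 fold change of 0.53 ± 0.22 SE (adjusted p = 0.161). Hspa1b had 3.83 and 4.18 CPM with BRM014, against 2.91 and 2.95 with DMSO (0.46 ± 0.20 SE, adjusted p = 0.18). The libraries with BRM014 were above those with DMSO for both copies, by less than the test could separate.

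Hspd1 had 138.6 and 138.1 CPM with BRM014, against 96.3 and 119.2 with DMSO (log2 fold change 0.36 ± 0.14 SE, adjusted p = 0.138). Hsp90aa1 had 573.2 and 614.8 with BRM014, against 410.4 and 534 with DMSO (0.33 ± 0.15 SE, adjusted p = 0.213). For both genes library 1 of DMSO was the lowest of the 4. Without library 2 of DMSO, Hspd1 (0.53, adjusted p = 0.0103) and Hsp90aa1 (0.54, adjusted p = 0.0114) were called, and without library 1 of DMSO they were at 0.21 (adjusted p = 0.406) and 0.15 (adjusted p = 0.569). Hspd1-ps3, a pseudogene row, was counted 328 and 488 times in BRM014 libraries, against 259 and 374 times in DMSO libraries, and was called higher (0.53 ± 0.15 SE, adjusted p = 0.0265 over the 15464 genes); how reads shared between gene and pseudogene were assigned is not given in the sources used here.

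The other 6 genes varied less with BRM014. Hsph1 had a log2 fold change of 0.26 ± 0.15 SE, Hsf1 0.04 ± 0.15 SE, Hsp90ab1 -0.01 ± 0.15 SE and Hspe1 -0.01 ± 0.15 SE. Hspa8 was at 190 and 181 CPM with BRM014, against 194.5 and 229.4 with DMSO (-0.19 ± 0.13 SE). Dnajb1 was at 28.9 and 26.9 with BRM014, against 31.5 and 31 with DMSO (-0.16 ± 0.13 SE). Both BRM014 libraries were below both DMSO libraries for Hspa8 and for Dnajb1, without a call.

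**Figure D3:**
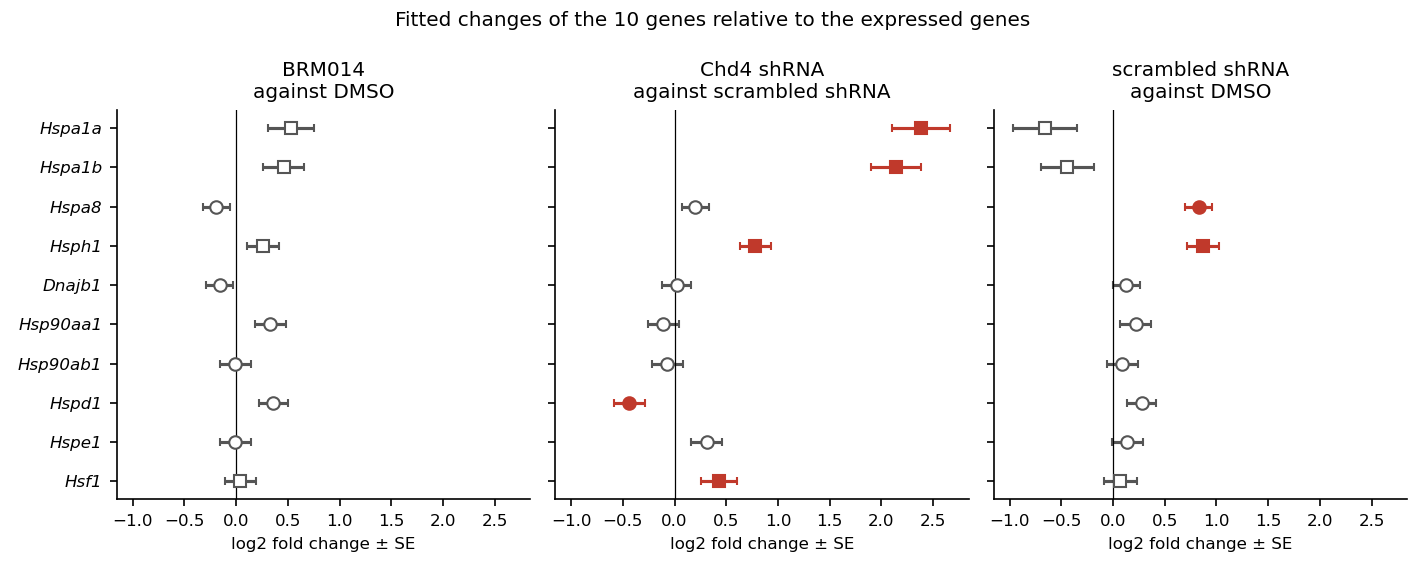
Fitted log2 fold changes (x axis, points) with their SE (bars) for the 10 genes (y axis) in 3 comparisons, red where the adjusted p was under 0.05. Circles are genes at least 10-fold above background and squares the 4 weaker ones, and Hspa1a at 2.38 and Hspa1b at 2.14 are farthest from 0 among all values, in the comparison of Chd4 shRNA with scrambled shRNA.

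The 2 treatments differed in 4 of the 10 genes when the difference between their effects was tested, each effect being taken against its own control. The effect of BRM014 minus that of Chd4 shRNA was -1.84 ± 0.37 SE for Hspa1a (adjusted p = 0.000249) and -1.68 ± 0.32 SE for Hspa1b (adjusted p = 0.000119), on the log2 scale. It was 0.80 ± 0.20 SE for Hspd1 (adjusted p = 0.00527), whose value was above 0 with BRM014 and below 0 with Chd4 shRNA. For Hsph1 it was -0.53 ± 0.21 SE (adjusted p = 0.0461), a call lost without any one of 6 of the 8 libraries and with background subtracted (-0.41, adjusted p = 0.196). The median difference over the 15464 genes tested with it was -0.43. Without library 1 of Chd4 shRNA the difference for Hspd1 was 0.65 (adjusted p = 0.0551), and on the ERCC scales it was 0.70 with TMM-scaled totals (adjusted p = 0.999), 0.33 with the 6 most abundant ERCC RNAs (adjusted p = 0.77) and 0.17 with plain sums (adjusted p = 0.818). The calls for Hspa1a and Hspa1b were lost on TMM-scaled ERCC totals (-1.92, adjusted p = 0.322, and -1.71, adjusted p = 0.399) and with TMM over all genes (-0.42, adjusted p = 0.363, and -0.26, adjusted p = 0.512). In this test 30.8% of the genes at least 10-fold above background (14.5% higher, 16.4% lower) and 45.4% of those at least 3-fold above it (8.3% higher, 37.1% lower) were called.

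The control groups differed from each other in Hspa8 and Hsph1. Hspa8 had 369 and 383.4 CPM with scrambled shRNA, against 194.5 and 229.4 with DMSO, and was 1.77-fold higher with scrambled shRNA (log2 fold change 0.83 ± 0.13 SE, adjusted p = 0.000354). Hsph1 had 22.3 and 18.7 with scrambled shRNA, against 10.5 and 11.9 with DMSO, and was 1.83-fold higher (0.87 ± 0.15 SE, adjusted p = 0.000407). Both scrambled libraries were above both DMSO libraries for each gene. Hspa1a pointed the other way, at 1.49 and 1.35 CPM with scrambled shRNA, against 2.04 and 2.44 CPM with DMSO (-0.66 ± 0.31 SE, adjusted p = 0.19), and Hspa1b likewise (-0.44 ± 0.26 SE, adjusted p = 0.316). Thus 2 of the 10 were called, both higher, where 13.1% of the genes at least 10-fold above background (6.86% higher, 6.24% lower) and 9.64% of those at least 3-fold above it (5.9% higher, 3.74% lower) were. Lentivirus, puromycin, solvent and time all differ between the controls and cannot be told apart, and the scrambled libraries also serve as the reference for Chd4 shRNA.

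Likeness to other expressed genes was measured as Pearson's r of log2 CPM over the 8 libraries, which fall into 4 groups and so carry few independent points. The patterns nearest to Hspa8 were those of Gm15459, Gm26825 and Gm6210, with an r of 0.998, 0.998 and 0.996. RefSeq lists Gm15459 and Gm6210 as pseudogenes, and Gm15459 was also higher with scrambled shRNA than with DMSO (log2 fold change 0.88 ± 0.13 SE, adjusted p = 8.24e-05); whether these rows share reads with Hspa8 was not tested. The patterns nearest to Hspd1 were those of Hnrnpc, Map2k1 and Orc4, with an r of 0.982, 0.979 and 0.978. Inside Hspa8 lie the rows of 3 snoRNAs, Snord14c, Snord14d and Snord14e, with between 5 and 12 counts each per Chd4 shRNA library, against 12 to 28 per scrambled library. Of these, Snord14c was called lower (-1.10 ± 0.44 SE, adjusted p = 0.0375), while its host gene was not.

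Other chaperone genes were read from lists of the same machinery, against a background of 20.4% of expressed genes called higher and 20.2% called lower with Chd4 shRNA. All 8 subunits of TRiC, the cytosolic chaperonin that folds actin and tubulin, were lower in the libraries labelled Chd4 shRNA, with a median log2 fold change of -0.81 where the median of all expressed genes was 0.01. The counts of Cct5 were 702 and 658 with Chd4 shRNA, against 1954 and 1995 with scrambled shRNA (log2 fold change -1.01 ± 0.13 SE, adjusted p = 6.43e-06), and Cct4, Cct7 and Tcp1 changed by -0.99, -0.86 and -0.83. The ERCC scales gave 0 calls for this list, with medians from -0.63 to -0.21. Of 15 expressed genes in the list of HSP90 and HSP70 co-chaperones, 10 were lower and 0 higher, with a median of -0.44. Among the 10 was Trap1 (-0.44), which encodes the mitochondrial HSP90 and is not a co-chaperone. The 10 also included the HSP90 partners Ppid (cyclophilin 40, -0.85), Fkbp4 (FKBP52, -0.71), Ptges3 (p23, -0.64) and Sugt1 (SGT1, -0.59). The cytosolic Hsp90aa1 and Hsp90ab1 themselves were at -0.11 and -0.07. The count of lower calls was 3 without library 1 of Chd4 shRNA and 6 without library 4. On the ERCC scales it was 0, with a median of -0.26 on TMM-scaled totals, 0 on the 6 most abundant ERCC RNAs and 0.15 on plain sums, where 2 genes were called higher.

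The lists did not move as one. Among 11 expressed J-domain genes, 6 were higher and 2 lower, with a median of 0.36: Dnajc2, a ribosome-associated co-chaperone, was at 0.72 ± 0.14 SE and Dnajc5 at 0.54 ± 0.15 SE, whereas Dnajc8 was at -0.49 ± 0.14 SE. These J-domain counts were 1 higher and 0 lower without library 3 of scrambled shRNA, 3 and 0 without library 1 of Chd4 shRNA and 2 and 2 without its library 4. They were 0 and 0 on TMM-scaled ERCC totals, 0 and 3 with genes 3-fold above background (median -0.01), and 0 and 11 with TMM over all genes (median -0.99). Of the 6 prefoldin genes, Vbp1 (-1.42 ± 0.15 SE) and Pfdn4 (-1.27 ± 0.18 SE) fell and Pfdn5 rose (0.49 ± 0.13 SE). Hspa14 was the 1 called gene, lower, of 3 other HSP70 genes (-0.74 ± 0.14 SE), and Hspb8 the 1 called gene of 4 small heat shock proteins (-0.85 ± 0.13 SE). The list of the HSF family and its regulators held 3 expressed genes, Hikeshi, Hsbp1 and Hsf2bp. No HSF gene was among these 3, and 0 were called. Of 6 other targets of the response, Serpinh1, the collagen chaperone HSP47 (0.98 ± 0.15 SE), Hmox1 (0.66 ± 0.16 SE) and Sqstm1 (0.44 ± 0.13 SE) rose and Mrpl18 fell (-0.80 ± 0.14 SE). With BRM014, Hspb8 fell as well (-0.50 ± 0.12 SE, adjusted p = 0.014). From the TRiC, co-chaperone, J-domain and prefoldin lists 0 genes were called, where 7.15% of expressed genes were. Without library 2 of DMSO the medians of TRiC, co-chaperone and J-domain genes were 0.32, 0.16 and 0.19. Without library 1 of DMSO they were 0.14, 0.05 and 0.06. The difference between the effects of BRM014 and Chd4 shRNA was called for all 8 TRiC genes, with a median of 1.01. It was called for 6 of the 15 genes in the co-chaperone list, all positive, where 30.8% of expressed genes were called. It was also called for Vbp1 (1.74 ± 0.20 SE), Pfdn4 (1.60 ± 0.24 SE), Mrpl18 (0.94 ± 0.19 SE), Dnajc9 (0.88 ± 0.20 SE), Hspa14 (0.80 ± 0.19 SE) and Dnajc8 (0.66 ± 0.19 SE). The sign was opposite for Hmox1 (-0.87 ± 0.22 SE), Serpinh1 (-0.83 ± 0.21 SE), Dnajc5 (-0.64 ± 0.20 SE) and Sqstm1 (-0.53 ± 0.18 SE). How the list calls for this difference change on other scales was not tested. On TMM-scaled ERCC totals 24 of all 8017 genes were called for it. Between scrambled shRNA and DMSO, calls in these lists were Dnajc9 (-0.50 ± 0.14 SE) and Pfdn2 (-0.66 ± 0.13 SE), both lower with scrambled shRNA.

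**Figure D4:**
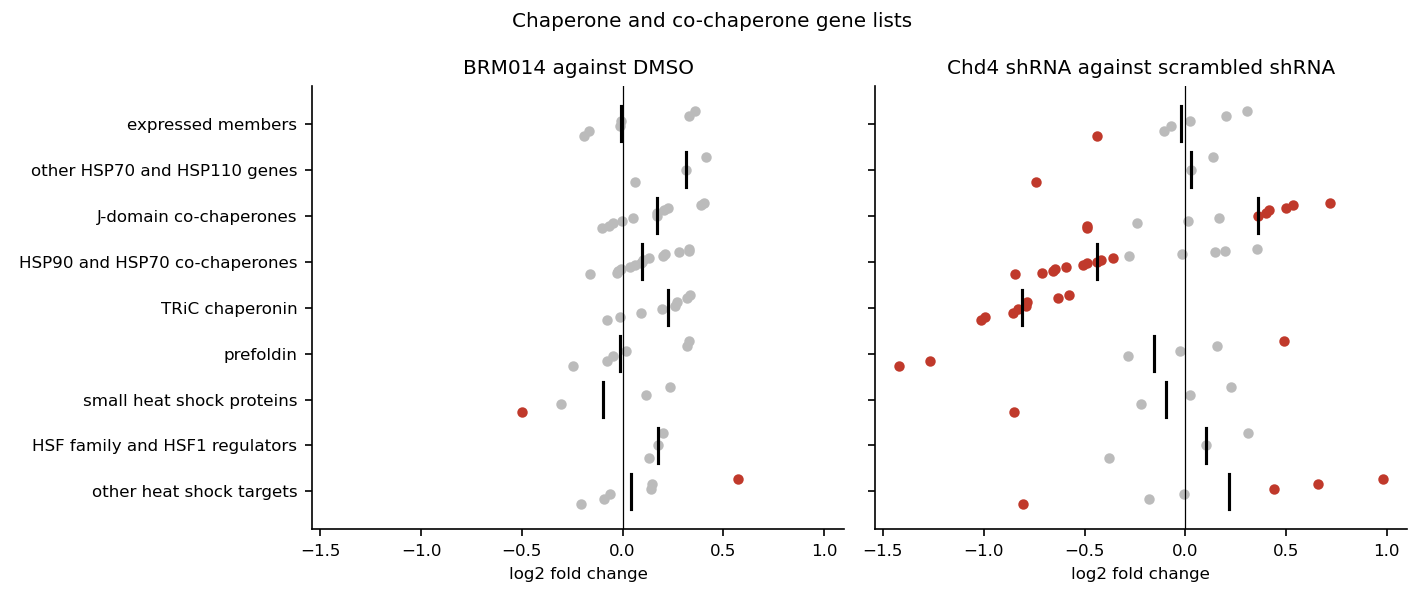
Log2 fold changes (x axis) of the genes in each chaperone list (y axis, 1 point per gene at least 10-fold above background) for BRM014 against DMSO and for Chd4 shRNA against scrambled shRNA, red where the adjusted p was under 0.05, with a black line at the list's median. The 8 TRiC genes all lie below 0 with Chd4 shRNA, around -0.81, and have a median of 0.23 with no call with BRM014; on the ERCC scales 0 of the 8 are called with Chd4 shRNA.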

How the data were processed

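The deposited values are read counts per gene, made by the authors for nascent RNA. The submitters' processing notes name Trim Galore 0.6.4, STAR 2.7.1a, featureCounts, edgeR 3.32.1 and the build mm10. Strand and multimapping settings are not given in the sources used here. Chromatin immunoprecipitation data of the series (40 samples) were not used here.

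One model over the 8 libraries was fitted in edgeR 4.0.16 under R 4.3.3, and each contrast had its quasi-likelihood test with Benjamini-Hochberg adjustment over all genes fitted, and called at 0.05. SEs came from the F statistic. TMM library sizes came from 8017 genes whose mean count was at least 10-fold above background (receptor genes, 5330.3 kb of exon), so changes are relative to expressed genes. Hspa1a, Hspa1b, Hsph1 and Hsf1 fell below that limit and were tested among 15464 genes at least 3-fold above background on the same library sizes, which was chosen after seeing the data. Exact permutation of 2 against 2 libraries cannot go below p = 0.333. Depth limits Hspa1a and Hspa1b most, with 12 to 74 counts per library.

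The members and lists were chosen with earlier results of these data known. Named were all 10 members, up to 4 called genes of smallest p per list, the 3 nearest patterns of called members, and overlapping rows; other genes were named after their values were seen. Promoters are from RefSeq. Alternatives used ERCC scalings, DESeq2 1.42.0, other filters, background subtraction, separate fits, a replicate block and each library left out. The fits with background subtracted took their library sizes from the subtracted counts. One result in the lists is not reported here.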

Additional observations from a re-analysis of the deposited data

Results flagged for a closer look

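In 4 genes the effects of the 2 treatments differed, by the test of the difference itself, taken as BRM014 against DMSO minus Chd4 shRNA against scrambled shRNA on the log2 scale with edgeR. The values were -1.84 ± 0.37 SE for Hspa1a (adjusted p = 0.000249), -1.68 ± 0.32 SE for Hspa1b (adjusted p = 0.000119), -0.53 ± 0.21 SE for Hsph1 (adjusted p = 0.0461) and 0.80 ± 0.20 SE for Hspd1 (adjusted p = 0.00527). The treatments also differ in duration, delivery and background, which cannot be told apart from the factor each one targets. In this test 30.8% of the genes at least 10-fold above background were called, and 45.4% of those at least 3-fold above it. The median difference of the 15464 genes at least 3-fold above background was -0.43. Each of the 4 calls depends on the scale. On TMM-scaled ERCC totals all 4 calls were lost, at values near those above but with larger SEs. These were -1.92 ± 0.85 SE for Hspa1a, -1.71 ± 0.83 SE for Hspa1b, -0.58 ± 0.8 SE for Hsph1 and 0.7 ± 0.69 SE for Hspd1. On plain ERCC sums Hspd1 was at 0.17, and with TMM over all genes Hsph1 turned to 0.9.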

How the results depend on the processing

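Over the alternatives, 560 of 714 values of the 10 genes kept their direction and their side of the threshold, 37 lost the call and 29 gained one. Direction turned in 23 where a call was involved, and in 65 that were called neither before nor after, which lay between -0.57 and 0.55. Hspa1a and Hspa1b were called higher in the libraries labelled Chd4 shRNA in all 17 alternatives, with log2 fold changes from 0.87 to 2.94 and from 0.64 to 2.71. Each TMM scaling over all genes, past the default filter or with no filter, moved the median expressed gene by -1.34 or -1.5 in that comparison and by 1.4 or 1.56 in the difference, and most reversals that involved a call came with it. In those 2 settings the value for Chd4 shRNA was -1.15 and -1.31 for Hspa8, -0.57 and -0.73 for Hsph1, -1.33 and -1.48 for Dnajb1, -1.04 and -1.2 for Hspe1, and -0.92 and -1.08 for Hsf1. The difference became 1.03 and 1.18 for Hspa8, 0.9 and 1.05 for Hsph1, 1.23 and 1.39 for Dnajb1, 1.1 and 1.25 for Hspe1, and 1.04 and 1.19 for Hsf1. Dnajb1 was at -0.35 with genes 3-fold above background, and Hspd1 at 0.18 with plain ERCC sums and 0.05 with the 6 most abundant ERCC RNAs, a setting chosen after seeing the data.

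For Chd4 shRNA, 0 of the 6 more strongly transcribed genes were called higher and 1 lower. Of all genes at least 10-fold above background, 20.4% were called higher and 20.2% lower. Higher calls among the 6 numbered 2 with plain ERCC sums, 30-fold above background and background subtracted. Lower calls numbered 0 with all 3 ERCC scales, 30-fold above background and background subtracted, 4 with genes 3-fold above background, and 6 in both scalings over all genes. Of the 4 weaker genes, 4 were called higher, where 43.7% of the genes at least 3-fold above background were. With TMM-scaled ERCC totals 2 of the 4 were, with Hsph1 at 0.96 ± 0.57 SE and Hsf1 at 0.61 ± 0.57 SE. In both scalings over all genes 2 were higher and 2 lower. For the difference, 1 of the 6 was called higher and 0 lower, where 14.5% and 16.4% of genes at least 10-fold above background were. Higher calls were 0 with all 3 ERCC scales, 2 with genes 3-fold above background and 6 in both scalings over all genes. Lower calls were 2 at 30-fold and 1 with background subtracted. Of the 4 weaker genes 3 were lower, where 37.1% of the genes at least 3-fold above background were. Lower calls among the 4 were 0 with TMM-scaled ERCC totals, and 0 with 2 higher in both scalings over all genes. For scrambled shRNA against DMSO, the 1 higher call in each set became 0 with TMM-scaled ERCC totals. Over all genes tested, TMM-scaled ERCC totals gave 0 calls for BRM014 in place of 573, 67 for Chd4 shRNA in place of 3255, 24 for the difference in place of 2473 and 3 for the controls in place of 1050. Apart from the scale shift, the cause was not tested.

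With each library left out, higher calls among the 6 ranged from 0 to 2 for BRM014 against DMSO, 0 to 1 for Chd4 shRNA, 0 to 2 for the difference and 1 to 3 for scrambled shRNA against DMSO; lower calls ranged from 0 to 1 for Chd4 shRNA and for the difference. Among the 4 weaker genes, higher calls with Chd4 shRNA ranged from 3 to 4 and lower calls in the difference from 2 to 4. Without library 2 of DMSO came the 2 higher calls for BRM014, the 2 for the difference and the 3 for the controls. The 1 lower call in the difference among the 6 came without library 1 of DMSO, and the 4 among the weaker genes without library 1 of scrambled shRNA.

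The labels do not say that replicate numbers pair BRM014 with DMSO, and library 1 deviations of the 2 groups correlated at -0.23 over 8017 genes. With the replicate block 0 of the 10 genes were called for BRM014 against DMSO, over 679 genes called in place of 573, and Hsph1 lost its call for the difference (-0.52, adjusted p = 0.0656). With the numbers crossed, 0 and 4 of the 10 were called. No paired analysis was possible for Chd4 shRNA against scrambled shRNA because their columns share only the number 1. Low counts limit Hspa1a and Hspa1b, and background limits Hsf1.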
